A study of Sus scrofa with 2 samples.

Results

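Voltage-gated calcium channel genes and the ryanodine receptor gene RYR2 were followed through the classes of nuclei of the pig pancreas. The 7 genes were chosen by name, of 31908 genes in the count matrices. They were 5 pore-forming subunits (CACNA1A, CACNA1B, CACNA1C, CACNA1D and CACNA1E), the auxiliary alpha2delta subunit CACNA2D1 and RYR2. All 7 were found, although CACNA1A and CACNA1C stood in the matrices under their Ensembl identifiers without a symbol (ENSSSCG00000013754 and ENSSSCG00000041764) and were named through the reference tables.

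Nuclei were isolated from a pancreas piece of 1 wild-type Bama pig (WT) and 1 transgenic Bama pig (PIGinH11) and sequenced by 10x droplet single-nucleus RNA-seq. The PIGinH11 pig carried the knocked-in GIPRdn, hIAPP and PNPLA3I148M transgenes at the H11 locus, under promoters meant to act in beta cells or in liver. Both pigs were 18 months old and ate a control diet until month 6, then for 12 months a high-fat, high-sucrose diet (HFHSD) in which 10% was pork lard, 37% was sucrose and the remaining 53% was the control diet. With 1 pig per group there was no test and no p-value for any difference between WT and PIGinH11: genotype, pig and library cannot be told apart, and every interval below covers counting error only.

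Voltage-gated calcium channels open when the membrane depolarises and let calcium into the cell. In islet endocrine cells this calcium triggers the exocytosis of hormone granules, and in smooth muscle it drives contraction. A channel is built from a pore-forming subunit, which sets the current type (P/Q-type for CACNA1A, N-type for CACNA1B, L-type for CACNA1C and CACNA1D, R-type for CACNA1E), with a cytoplasmic beta subunit and an extracellular alpha2delta subunit that help the pore reach the membrane. Ryanodine receptors lie in the membrane of the endoplasmic reticulum and release stored calcium; RYR2 is best known as the release channel of heart muscle.

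After filtering, 11854 WT nuclei (median 3016.5 unique molecular identifiers, UMIs) and 13126 PIGinH11 nuclei (median 1167 UMIs) remained, so the PIGinH11 library was much shallower. Before filtering, 60 barcodes occurred in both libraries, which was 0.441% of the WT and 0.401% of the PIGinH11 barcodes. Nuclei were grouped by clustering that left out the 7 genes and their partner genes, and each class was named only from marker genes. Many of these markers came from the study's own list, which was drawn from these libraries. Besides an endocrine set described below, 2 clusters could not be named and entered no class. Cluster 8 had 358 WT and 138 PIGinH11 nuclei, with digestive enzyme genes among its leading genes. Cluster 18 had 35 WT and 96 PIGinH11 nuclei, with PTPRC first among its leading genes. Levels are given as CPM, the UMIs of a gene in a class scaled to a total of 1000000 UMIs for that class and library. WT came first in every pair of values: 76 and 95 alpha-like nuclei, 127 and 133 beta-like, 26 and 64 delta-like, 9 and 39 gamma-like, 38 and 82 mural-like, 47 and 139 Schwann-like, 2150 and 2196 ductal-like, and 8436 and 9124 acinar-like. The markers of beta cells summed to 31103 and 28458 CPM in beta-like nuclei, against 3471 and 3133 CPM in alpha-like nuclei. All 12 mural markers were detected in mural-like nuclei of either library, with a sum of 5915 and 5846 CPM. Only 4 of the 7 Schwann markers with an identifier passed in the Schwann-like cluster, which carried Schwann markers at 11568 and 6146 CPM but also acinar markers at 4551 and 8602 CPM and endocrine markers at 7622 and 6253 CPM; the part of these in the Schwann-like values was not tested.

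The 7 genes were far higher in the endocrine classes than in acinar-like nuclei. CACNA1C, CACNA1D, CACNA2D1 and RYR2 were also carried by mural-like nuclei. In the alpha-like, beta-like, delta-like and gamma-like nuclei together, 7 of 7 members were at least 2-fold above acinar-like nuclei in WT and 7 of 7 in PIGinH11. Of all genes with at least 20 UMIs over the compared classes, 23.5% were that far above acinar-like nuclei in WT and 21% in PIGinH11. CACNA1A stood 220 times above acinar-like nuclei in WT and 122 times in PIGinH11. CACNA1E had the smallest excess, 20.6 times in WT and 9.28 times in PIGinH11. The excess was smaller in PIGinH11 than in WT for 6 members, and CACNA2D1 was the exception with 44.6 times in WT and 52.4 times in PIGinH11. Acinar-like levels of all 7 members were higher in the PIGinH11 library, as given below.

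**Figure D1:**
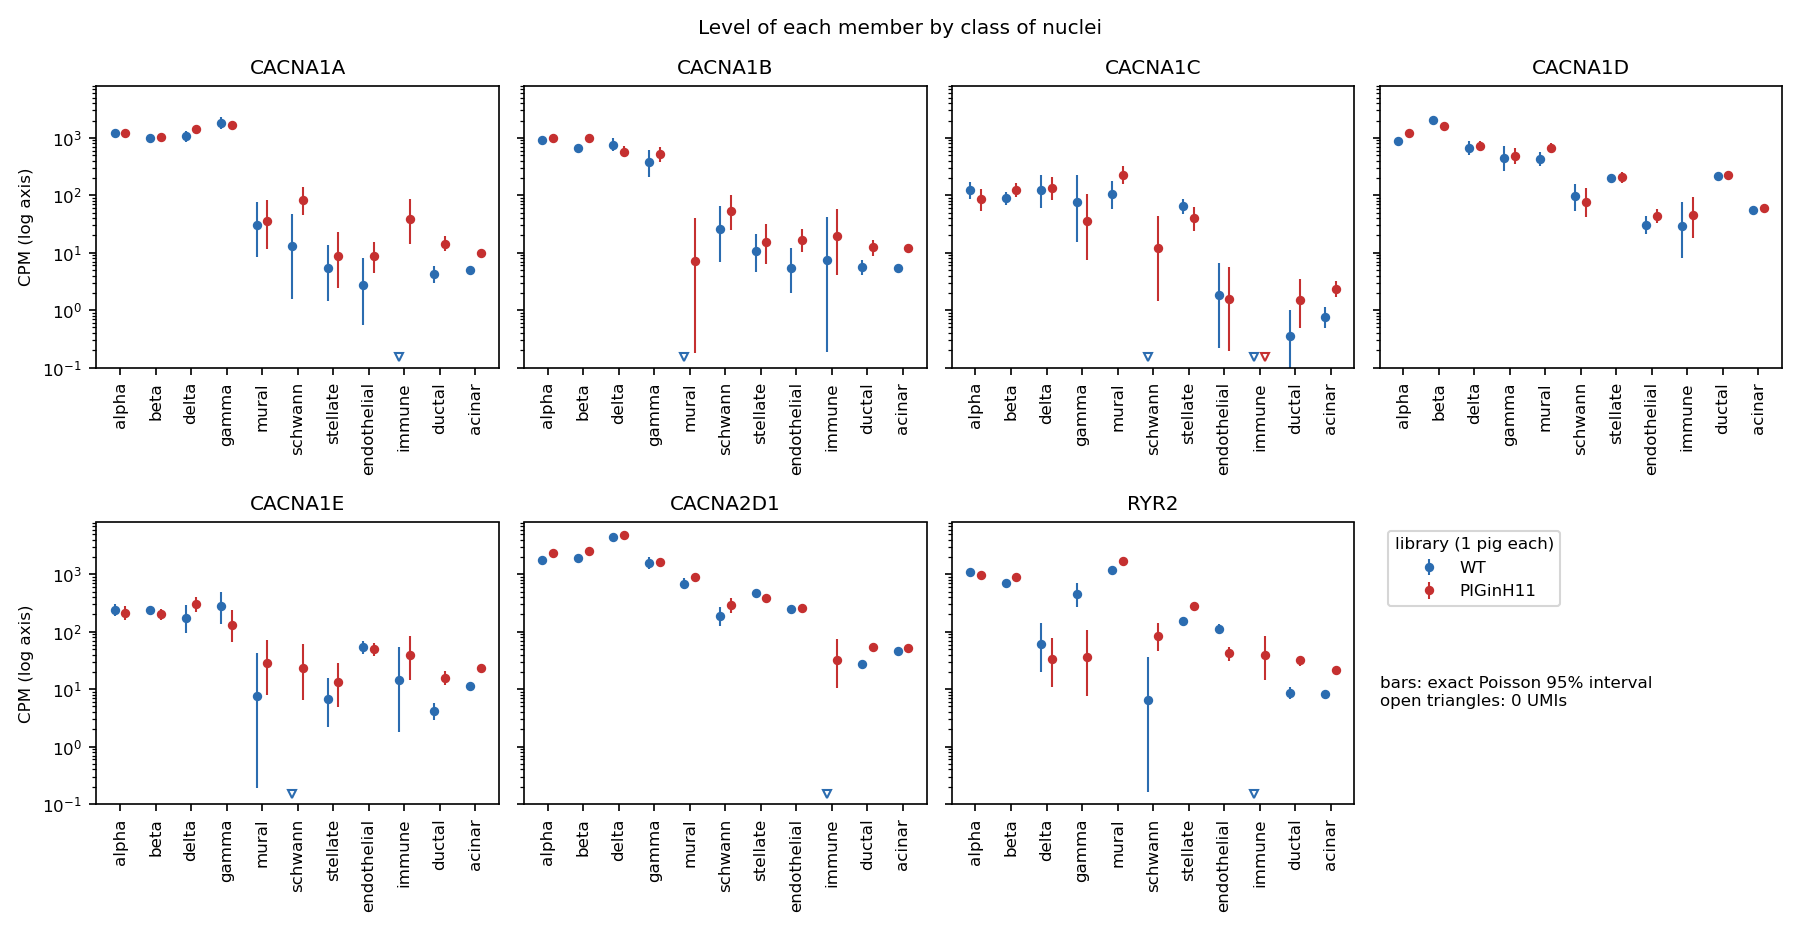
Level of each of the 7 genes in 11 classes of nuclei, in CPM on a log axis, for the WT (blue) and the PIGinH11 (red) library, 1 pig each. Points are CPM, bars exact Poisson 95% intervals and open triangles classes with 0 UMIs. An endocrine class is highest for each pore-forming subunit, except CACNA1C in PIGinH11, where mural-like nuclei are (229 CPM); delta-like nuclei are highest for CACNA2D1 and mural-like nuclei for RYR2, whose delta-like level is low in both libraries.

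CACNA1A, the P/Q-type pore on pig chromosome 2 (Sscrofa11.1, chr2:65491784-65871068 in RefSeq), was nearly confined to endocrine classes. Alpha-like nuclei held 1211 and 1235 CPM, beta-like nuclei 1014 and 1040.2 CPM, delta-like nuclei 1058 and 1452 CPM and gamma-like nuclei 1844 and 1685 CPM. Outside them it reached 83.5 CPM at most, in the Schwann-like nuclei of PIGinH11, on 14 UMIs in 6 nuclei. The gamma-like level in WT lay above those of alpha-like, delta-like and beta-like nuclei, but 68 of its 73 UMIs came from 5 nuclei. Alpha-like, delta-like and beta-like nuclei of WT had overlapping intervals. A UMI of CACNA1A was found in 90.6% and 77.4% of beta-like nuclei, whose median depth was 4242 and 2247 UMIs. Of acinar-like nuclei, 1.55% and 1.64% had one at a median depth of 2845.5 and 1196 UMIs. When nuclei were thinned to 500 UMIs each, the beta-like shares were 40.2% and 41.4% and the acinar-like ones 0.284% and 0.833%.

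CACNA1B, the N-type pore, was also mainly found in endocrine classes. Its RefSeq entry lies on a sequence that is not placed on a chromosome. Alpha-like nuclei held it at 921 and 1007 CPM, beta-like nuclei at 663 and 975 CPM, delta-like nuclei at 763 and 576 CPM and gamma-like nuclei at 379 and 521 CPM. In the mural-like nuclei of WT no UMI was found, with an interval of up to 28.0 CPM, where 3 counts would be 22.8 CPM. In those of PIGinH11 1 UMI was found. The beta-like share of nuclei with a UMI was 89% and 75.2%, or 25.2% and 36.8% after thinning, against 1.7% and 1.91% of acinar-like nuclei, or 0.332% and 0.822% after thinning.

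CACNA1D, an L-type pore on chromosome 13 (chr13:35568534-35911483, overlapping CHDH), was the pore-forming gene with the widest range of classes. By CPM it was the only pore-forming gene highest in beta-like nuclei in both libraries. Beta-like nuclei held 2046 and 1593 CPM, alpha-like nuclei 878 and 1208 CPM, delta-like nuclei 665 and 723 CPM and gamma-like nuclei 455 and 485 CPM. Mural-like nuclei held 433 and 672 CPM, which in each library overlapped the gamma-like interval, and ductal-like nuclei held 218 and 229 CPM. Stellate-like nuclei held 202 and 205 CPM, so that their intervals overlapped those of ductal-like nuclei in each library. Acinar-like nuclei had 55.1 and 61.0 CPM. The share of beta-like nuclei with a UMI was 96.9% and 83.5% (57.5% and 49.6% after thinning), against 13.5% and 8.56% of acinar-like nuclei (2.94% and 3.36% after thinning). In alpha-like nuclei the thinned share was 25% and 51.6%, so in PIGinH11 it was not below the beta-like share.

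CACNA1D was the single member at least 2-fold above acinar-like nuclei in ductal-like nuclei, 1 of 7 in each library, where 18.1% of all genes were in WT and 18.1% in PIGinH11. The ratio was 3.96 in WT and 3.75 in PIGinH11. It was seen in each of the 3 ductal-like clusters, at 227 and 239, 171 and 202, and 202 and 225 CPM. After thinning, 9.77% and 10.7% of ductal-like nuclei had a UMI of it.

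CACNA1C, the L-type pore of heart and smooth muscle (chr5:69016954-69448428), was far lower. Alpha-like nuclei held 123 and 85.2 CPM, beta-like nuclei 88.4 and 126 CPM and delta-like nuclei 123 and 134 CPM. Mural-like nuclei held 106 and 229 CPM, on 14 and 32 UMIs, and stellate-like nuclei 64.5 and 40.2 CPM. In WT the intervals of the alpha-like, delta-like, mural-like and beta-like levels overlapped. A UMI was found in 26% and 26.3% of beta-like nuclei (3.94% and 6.02% after thinning), against 0.273% and 0.384% of the acinar-like ones. Levels in ductal-like, endothelial-like and acinar-like nuclei did not exceed 2.37 CPM in either library.

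CACNA1E, the R-type pore (chr9:122827386-123318372), had similar levels in the endocrine classes. Alpha-like nuclei had 237 and 213 CPM, beta-like nuclei 242 and 201 CPM and delta-like nuclei 172 and 301 CPM. Within WT the intervals of these classes overlapped. Of the classes outside the endocrine ones, endothelial-like nuclei held the most in both libraries, 54.4 and 50.0 CPM, with an interval that overlapped the immune-like one. This came from the endothelial-like cluster 9 (75.6 and 78.4 CPM) rather than cluster 13 (8.61 and 14.3 CPM). Acinar-like nuclei had 11.5 and 23.2 CPM.

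CACNA2D1 encodes the alpha2delta subunit that binds gabapentin, and it peaked in delta-like nuclei. Their level was 4442 and 4825 CPM, against 1926 and 2525 CPM in beta-like, 1759 and 2324 CPM in alpha-like and 1591 and 1624 CPM in gamma-like nuclei. A UMI was present in 100% and 93.8% of delta-like nuclei, and still in 92.3% and 79.7% after thinning to 500 UMIs. The thinned share was 52.8% and 67.7% in beta-like nuclei, 1.98% and 3.29% in acinar-like nuclei. Outside the endocrine classes, CACNA2D1 UMIs occurred in mural-like (691 and 900.5 CPM), stellate-like (466 and 388 CPM), endothelial-like (248 and 259 CPM) and Schwann-like nuclei (187 and 292 CPM). The gene lies at chr9:97781057-98265925 in RefSeq.

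RYR2 (chr14:53652140-54406691) was highest in mural-like nuclei in both libraries and, among the 4 named endocrine classes, higher in alpha-like and beta-like than in delta-like nuclei. Mural-like nuclei held 1215 and 1737 CPM, alpha-like nuclei 1091 and 979.8 CPM and beta-like nuclei 711 and 912 CPM. In WT the mural-like and alpha-like intervals overlapped, and in PIGinH11 the mural-like interval (1525 to 1969 CPM) lay above that of alpha-like nuclei (863 to 1108 CPM). A UMI of RYR2 was found in 32 of 38 mural-like nuclei of WT and in 58 of 82 of PIGinH11, and in 2.77% and 3.47% of acinar-like nuclei. Delta-like nuclei had 61.5 and 33.5 CPM, on 5 UMIs in each library.

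In gamma-like nuclei the RYR2 level was 455 CPM in WT and 36.4 CPM in PIGinH11. The PIGinH11 interval overlapped the delta-like one, so in that library a low level was not particular to delta-like nuclei. In WT, 16 of the 18 gamma-like UMIs came from 1 nucleus and the other 8 nuclei held 2. Endothelial-like nuclei showed a like concentration. There 118 of the 124 UMIs of WT lay in 8 of 278 nuclei. These held 0 CPM of the mural, 5736 CPM of the endothelial and 585 CPM of the endocrine markers. The other 270 held 31.8, 9056 and 267 CPM of them. In PIGinH11, 2 endothelial-like nuclei had 5 or more UMIs of RYR2 and held 343, 3084 and 2912 CPM of the same markers. The part of other cell types in these nuclei was not tested. By cluster, RYR2 reached 344 and 75.2 CPM in endothelial-like cluster 13 and 5.30 and 15.7 CPM in cluster 9. Stellate-like nuclei (153 and 277 CPM) had 72 of 114 and 83 of 124 UMIs in 8 and 9 nuclei. The RYR2 levels of gamma-like and endothelial-like nuclei of WT and of stellate-like nuclei of both libraries thus rested largely on few nuclei.

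Most endocrine nuclei carried several members at once. The median alpha-like and beta-like nucleus had UMIs of 5 of the 7 members in each library, and the median delta-like nucleus of 4. In mural-like nuclei the median was 3 in WT and 2 in PIGinH11, and in acinar-like nuclei it was 0. Since depth differed, nuclei were also thinned to 500 UMIs. A UMI of any pore-forming member was then found in 85.0% and 87.2% of beta-like, 78.9% and 83.2% of alpha-like, 76.9% and 73.4% of delta-like and 36.8% and 31.7% of mural-like nuclei. The same share was 4.08% and 6.43% in acinar-like and 10.7% and 13.5% in ductal-like nuclei.

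Levels of the 5 pore-forming members were set side by side after dividing CPM by gene length, because long genes give more intronic UMIs in nuclei. CPM of the partner genes below were not divided by length. The 5 pore-forming members spanned 194.319 kb (CACNA1B, whose unplaced entry may be partial) to 490.987 kb (CACNA1E). Of their summed CPM per length in beta-like nuclei of WT, CACNA1D made up 46.8%, CACNA1B 26.8%, CACNA1A 21%, CACNA1E 3.87% and CACNA1C 1.61%. In PIGinH11 the beta-like shares were 35.4% for CACNA1D, 38.3% for CACNA1B, 20.9% for CACNA1A, 3.12% for CACNA1E and 2.22% for CACNA1C. The PIGinH11 shares of CACNA1B and CACNA1D were close, and their order rests on the CACNA1B length. So does the place of CACNA1B above CACNA1A in beta-like nuclei, where CACNA1A had the higher CPM in each library. Alpha-like nuclei had CACNA1B first in both libraries, with 42.1% and 41.1%. That order rests on the CACNA1B length as well. By CPM, CACNA1A was first there, at 1211 and 1235 CPM against 921 and 1007 CPM for CACNA1B. In PIGinH11 the alpha-like CPM of CACNA1D (1208) was also above that of CACNA1B. In mural-like nuclei CACNA1D made up 78.7% and 73.1% and CACNA1C 15.4% and 19.8%, and in ductal-like nuclei CACNA1D made up 92.8% and 83.0%.

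Between endocrine classes, CACNA1D was highest in beta-like nuclei in each library, CACNA2D1 was highest in delta-like nuclei, and RYR2 was far lower in delta-like than in alpha-like and beta-like nuclei. Log2 ratios of CPM are used here, with exact conditional binomial 95% intervals. Alpha-like over beta-like, CACNA1D was at -1.22 (-1.42 to -1.03) in WT and -0.40 (-0.60 to -0.20) in PIGinH11. In WT 1 of 7 members, CACNA1D, was at least 2-fold lower in alpha-like than beta-like nuclei (12.6% of all genes were) and 0 of 7 were 2-fold higher (10.3% of all genes). In PIGinH11, 0 of 7 were 2-fold lower (14.6% of all genes) and 0 of 7 were 2-fold higher (10.9% of all genes). RYR2 was at 0.62 (0.41 to 0.83) in WT and 0.10 (-0.13 to 0.34) in PIGinH11. CACNA1A had nearly the same ratio in each library, 0.26 and 0.25.

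Delta-like over beta-like, RYR2 was at -3.53 (-5.16 to -2.30) in WT and -4.77 (-6.40 to -3.53) in PIGinH11. CACNA1D was at -1.62 and -1.14, and these 2 of 7 members were the ones at least 2-fold lower in each library (19.9% of all genes in WT, 15.2% in PIGinH11). CACNA2D1 was at 1.21 (1.03 to 1.38) in WT and 0.93 (0.79 to 1.07) in PIGinH11, so that 1 of 7 members passed 2-fold in WT (10.7% of all genes) and 0 of 7 in PIGinH11 (10.8% of all genes). CACNA1B took opposite signs in the libraries, 0.20 in WT with an interval that included 0 and -0.76 (-1.11 to -0.42) in PIGinH11. Delta-like nuclei numbered 26 in WT, and acinar markers summed in them to 1834 CPM in WT and 4082 CPM in PIGinH11; their part in these ratios was not tested.

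**Figure D2:**
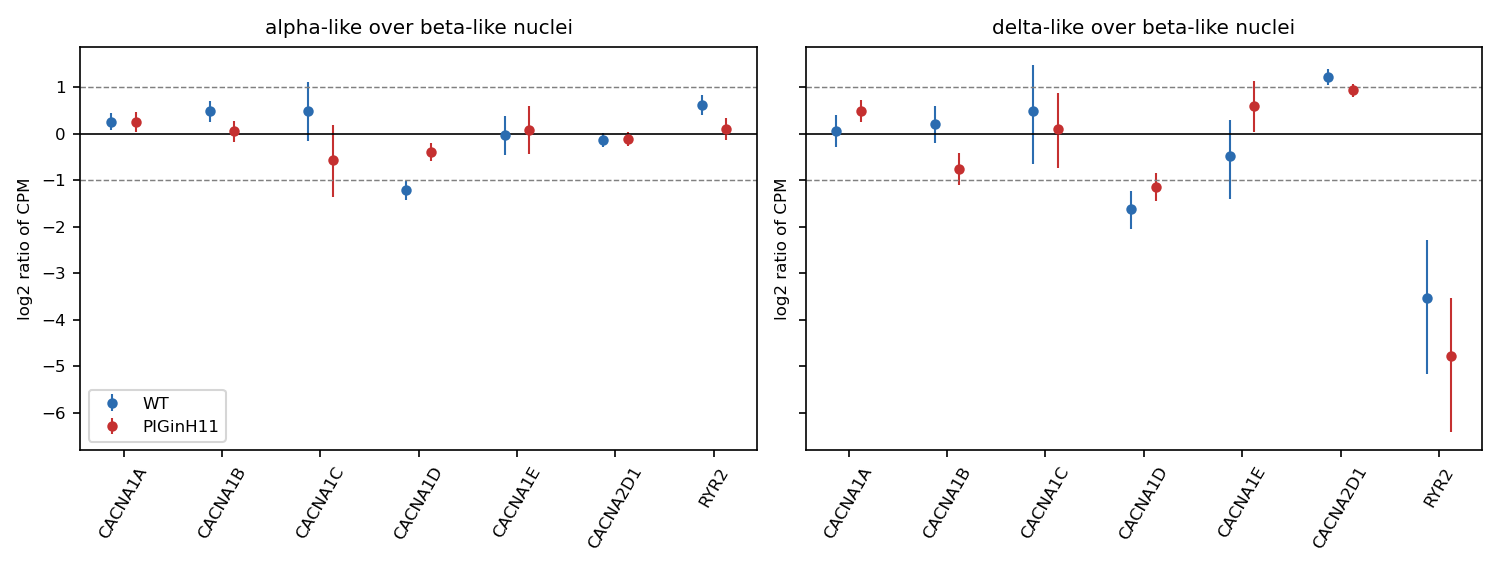
Log2 ratio of CPM of each gene, alpha-like over beta-like (left) and delta-like over beta-like nuclei (right), in WT (blue) and PIGinH11 (red); bars are exact 95% intervals and dashed lines mark 2-fold. CACNA1D lies below 0 in all 4 comparisons, and RYR2 lies below -3 in both delta-like comparisons.

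Mural-like nuclei were set against acinar-like nuclei in the same way. 5 of 7 members (CACNA1A, CACNA1C, CACNA1D, CACNA2D1 and RYR2) were at least 2-fold higher in mural-like nuclei of each library, where 18.6% of all genes were in WT and 21% in PIGinH11. CACNA1A passed on only 4 and 5 mural-like UMIs. Endocrine markers summed to 289 and 386 CPM in the mural-like nuclei, against 31044 and 23968 CPM in beta-like nuclei. Acinar markers summed to 5771 and 4488 CPM in the mural-like nuclei and ductal markers to 3227 and 5310 CPM. Their part in the mural-like values was not tested.

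The comparison of PIGinH11 with WT asks whether the calcium channel genes of endocrine cells differ in level in the transgenic pig. In beta-like nuclei 0 of 7 members were at least 2-fold lower in PIGinH11 and 0 of 7 at least 2-fold higher. Over all 6896 genes with at least 20 UMIs there, 5.92% were that much lower and 6.7% that much higher. CACNA1D was lower in PIGinH11, with 1249 and 634 UMIs, 2046 and 1593 CPM and a log2 ratio of -0.36 (-0.50 to -0.22). CACNA1B was higher at 0.56 (0.35 to 0.76), CACNA2D1 at 0.39 (0.27 to 0.51) and RYR2 at 0.36 (0.15 to 0.56). The intervals of the other 3 included 0: CACNA1A was at 0.04 (-0.15 to 0.22), CACNA1C at 0.51 (-0.08 to 1.09) and CACNA1E at -0.27 (-0.68 to 0.13). The members thus lay on both sides of the median of all beta-like genes, which was 0.0929.

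Nuclei of the beta-like class came from 2 clusters that differed in depth, cluster 3 with 72 and 62 nuclei and cluster 4 with 55 and 71. CACNA1D was lower in PIGinH11 in each, at 2121 and 1563 CPM in cluster 3 and, in cluster 4, at 1799 and 1681 CPM. CACNA1B was higher in each, at 613 and 966 CPM in cluster 3 and, in cluster 4, at 829 and 1001 CPM. CACNA2D1 and RYR2 were likewise higher in PIGinH11 in each cluster. For each of these 4 genes the WT and PIGinH11 intervals were apart in cluster 3 but overlapped in cluster 4. Beside these values, the digestive enzyme genes, which beta cells do not make, summed to 29976 CPM in WT and 5143 CPM in PIGinH11 in beta-like nuclei. INS was at 8514 and 5053 CPM. Acinar markers other than enzymes summed to 996 and 1083 CPM. As an alternative, the mean UMIs of a whole acinar-like nucleus were taken off for each beta-like nucleus. CACNA1D was then at -0.62, CACNA1B at 0.30, CACNA2D1 at 0.14 and RYR2 at 0.10. A whole nucleus holds more than free RNA, so the part of free RNA in the beta-like ratios was not tested. Under 13 other ways of processing, these 4 genes kept their sign. A limit of 1300 UMIs per nucleus, which left few beta-like nuclei, turned CACNA1D to 0.16 and moved RYR2 to 1.72.

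**Figure D3:**
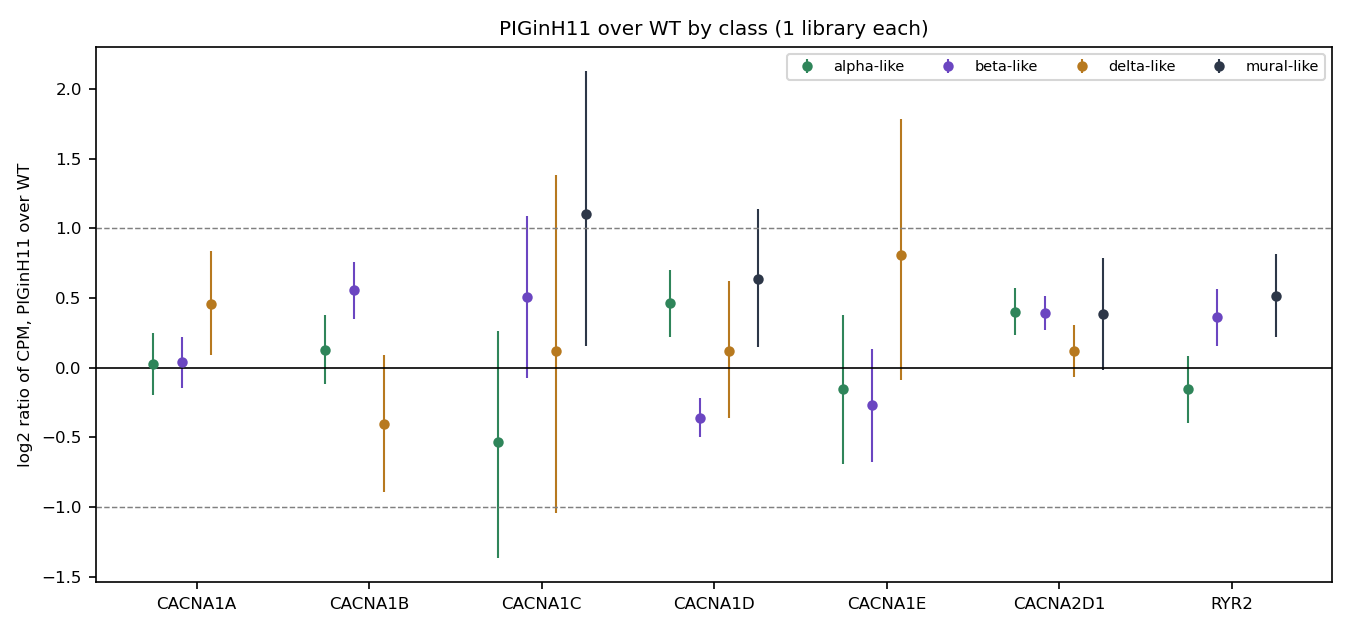
Log2 ratio of CPM, PIGinH11 over WT, of each gene with at least 20 UMIs, in alpha-like, beta-like, delta-like and mural-like nuclei (1 library each). Bars are exact 95% intervals for counting error and dashed lines mark 2-fold; only CACNA1C in mural-like nuclei lies past 2-fold, at 1.11 (0.16 to 2.13), and CACNA1D lies below 0 only in beta-like nuclei.

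**Figure D4:**
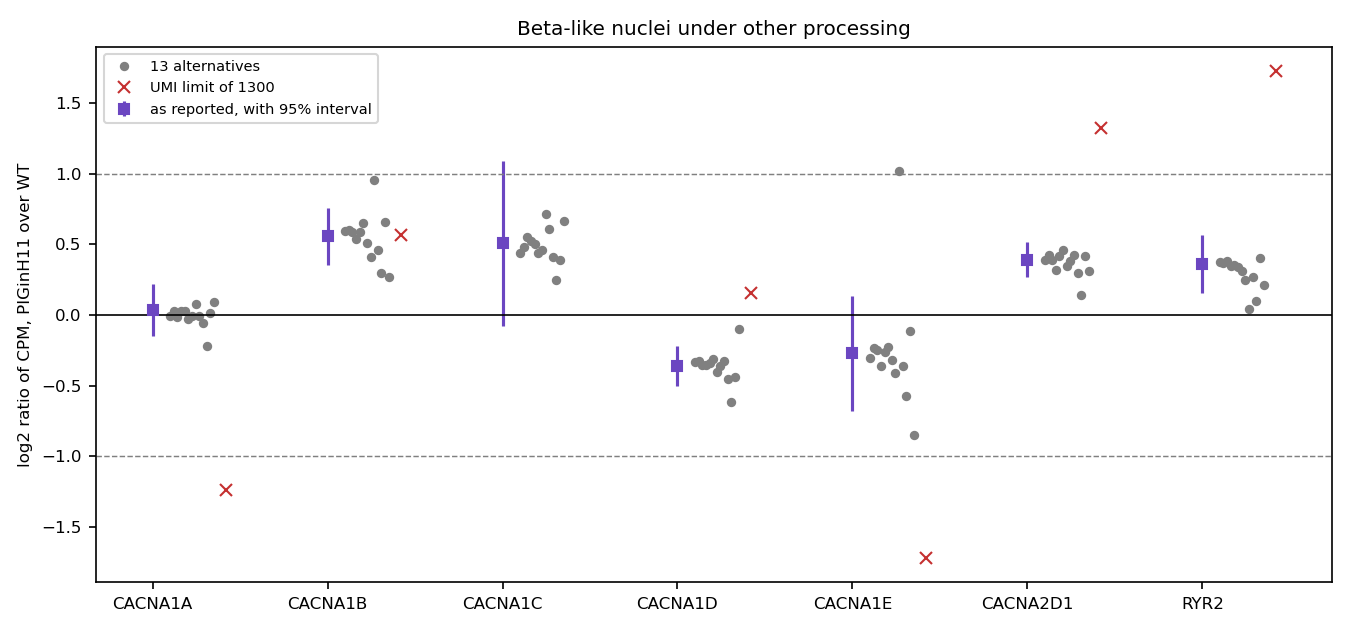
Log2 ratio of CPM, PIGinH11 over WT, in beta-like nuclei as reported (square with 95% interval), under 13 other ways of processing (grey points) and with a limit of 1300 UMIs per nucleus (red cross; no value for CACNA1C). Grey points of CACNA1D stay between -0.62 and -0.10, and those of CACNA1E reach from -0.85 to 1.02.

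In alpha-like nuclei 0 of 7 members were at least 2-fold lower in PIGinH11 (7.01% of all genes) and 0 of 7 at least 2-fold higher (6.63%). CACNA1D was higher there, at 0.46 (0.22 to 0.70), on 263 and 312 UMIs, which is the opposite sign to beta-like nuclei. CACNA2D1 was higher by 0.40 (0.23 to 0.57), close to its beta-like value. CACNA1A at 0.03, CACNA1B at 0.13 and RYR2 at -0.16 (-0.40 to 0.09) had intervals that included 0. In delta-like nuclei 6 members had 20 UMIs, of which 0 were 2-fold lower (6.99% of all genes) and 0 were 2-fold higher (11.5%). CACNA1A was at 0.46 (0.09 to 0.83) there, and the intervals of the other 5 included 0. Of the delta-like CACNA1A UMIs, 39 of 86 lay in 5 of 26 nuclei in WT. In PIGinH11, 84 of 217 lay in 5 of 64 nuclei.

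In mural-like nuclei 4 members had at least 20 UMIs. Of these, 1, CACNA1C, was at least 2-fold higher in PIGinH11 (11% of all genes) and 0 were 2-fold lower (9.34%). CACNA1C was at 1.11 (0.16 to 2.13) on 14 and 32 UMIs, but its thinned ratio was -0.11. CACNA1D was at 0.63 (0.14 to 1.14) and RYR2 at 0.52 (0.22 to 0.81), with 160 and 243 UMIs. CACNA2D1 was at 0.38 (-0.02 to 0.79). The 5 mural-like nuclei richest in RYR2 held 46.2% of its UMIs in WT and 27.2% in PIGinH11. The summed mural markers, at 5915 and 5846 CPM, were nearly equal in the libraries.

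In the exocrine classes the members were mostly higher in the PIGinH11 library. They were low there, apart from CACNA1D in ductal-like nuclei at 218 and 229 CPM. In acinar-like nuclei 4 of 7 (CACNA1B, CACNA1C, CACNA1E and RYR2) were at least 2-fold higher, and 21.6% of all genes were. 0 of 7 were 2-fold lower (2.98% of all genes). RYR2 went from 8.25 to 21.6 CPM (log2 1.39) and CACNA1B from 5.47 to 12.1 CPM (1.15). CACNA1D was at 0.15 and CACNA2D1 at 0.19, both below the acinar-like median. The acinar-like clusters differed in RYR2. Cluster 4, with 148 of the 337 UMIs of PIGinH11, went from 19.3 to 79.6 CPM. Cluster 2 went from 7.26 to 9.14 CPM and cluster 3 from 3.52 to 6.38 CPM. Clusters 1, 7 and 11 were higher in PIGinH11 too. Cluster 21, with 7 and 59 nuclei and INS first among its leading genes, went the other way. It held RYR2 at 1075 and 240 CPM, on 11 and 12 UMIs. The part of cluster 21 in the acinar-like values was not tested. Gene length was set beside these ratios, among acinar-like genes that reached 20 UMIs in WT and also in PIGinH11. The median log2 ratio was 0.42 for those over 200 kb, which include 6 of the members. It was 0.19 for those of 50 to 200 kb, which include CACNA1B, and 0.15 for those under 50 kb. The part of gene length in the acinar-like ratios was not tested. In ductal-like nuclei 4 of the 6 members with 20 UMIs (CACNA1A, CACNA1B, CACNA1E and RYR2) were at least 2-fold higher, where 17.4% of all genes were, and 0 were 2-fold lower (3.63%). CACNA1D, the member with the highest CPM in ductal-like nuclei, was at 0.07 there, below the ductal-like median. Ductal-like cluster 5 held RYR2 at 6.13 and 13.1 CPM, and the shallower cluster 6 held 23.1 and 85.1 CPM.

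A further set of 38 WT and 131 PIGinH11 endocrine nuclei could not be given an endocrine type. This set joined endocrine cluster 2 (35 and 110 nuclei) with endocrine cluster 7 (3 and 21 nuclei). It carried acinar markers at 7491 CPM in WT and 12470 CPM in PIGinH11, and endocrine markers at 17345 and 10217 CPM. CACNA1A was at 853 and 451 CPM in it, CACNA2D1 at 1609 and 814 CPM and RYR2 at 441 and 244 CPM. These 3 members were lower in PIGinH11, with log2 ratios of -0.92 (-1.34 to -0.51), -0.98 (-1.29 to -0.68) and -0.85 (-1.44 to -0.28). CACNA1D was lower too, at -0.51 (-0.89 to -0.12). The intervals of CACNA1B (-0.56), CACNA1E (-0.37) and CACNA1C (0.41, on 7 and 12 UMIs) included 0. The median of all genes was -0.04. The summed endocrine markers were also lower, and the part of their shift in those values was not tested. In PIGinH11, cluster 7 held CACNA2D1 at 2067 CPM and CACNA1D at 989 CPM, beside 642 and 531 CPM in cluster 2. CACNA1A and CACNA1C were lower in cluster 7 than in cluster 2. The part of the mix of these clusters in the ratios was not tested.

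The proteins that work with the channels were read from 10 partner lists of 68 genes, of which 63 had an identifier. In beta-like nuclei 24 had at least 20 UMIs. Of these, 3 were at least 2-fold lower in PIGinH11 (5.92% of all genes were) and 0 were 2-fold higher (6.7% of all genes), with a median log2 ratio of -0.05 beside 0.0929 over all genes. The 3 were CACNB4, CACNA2D3 and ERC2. CACNB4, a beta subunit that traffics and gates the pore, was at 521 and 214 CPM, with a log2 ratio of -1.29 (-1.65 to -0.94). CACNA2D3, another alpha2delta subunit, and ERC2, an active-zone scaffold, had 21 and 6 UMIs and 20 and 6 UMIs, and their intervals included 0 (-2.79 to 0.17 and -2.73 to 0.25).

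Of the beta subunits, CACNB2 had the highest CPM in beta-like and alpha-like nuclei, not divided by gene length. It stood at 5133 and 6166 CPM in beta-like nuclei, a log2 ratio of 0.26 (0.19 to 0.34), and at 3464 and 4376 CPM in alpha-like nuclei. CACNB4 was at 1505 and 1208 CPM in alpha-like nuclei, above its beta-like level in each library. CACNB1 and CACNB3 did not reach 20 UMIs in beta-like nuclei. Neither did any of the 8 gamma subunits, which are auxiliary subunits mostly of muscle and brain, nor any of the 7 RGK inhibitors and STAC adaptors, which limit or stabilise the channels at the membrane. Of the other pore-forming subunits, CACNA1H (T-type) alone passed, at 111 and 173 CPM and 0.64 (0.13 to 1.14).

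Of the 7 active-zone scaffolds, which tether channels beside secretory granules, 6 had at least 20 UMIs in beta-like nuclei. Of these, 1, ERC2, was at least 2-fold lower in PIGinH11 (5.92% of all genes) and 0 were 2-fold higher (6.7%). RIMS2 was at 2249 and 1822 CPM, or -0.30 (-0.44 to -0.17), and PCLO at 1002 and 839 CPM. RIMBP2 was higher in PIGinH11, at 1120.3 and 1281 CPM. In alpha-like nuclei RIMS2 was at 1745 and 1898 CPM and PCLO at 1846 and 1917 CPM.

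The other release channels included the inositol trisphosphate receptors ITPR1 and ITPR2. ITPR1 was at 631 and 724 CPM in alpha-like nuclei and only 57.3 and 77.9 CPM in beta-like nuclei. Beta-like nuclei held ITPR2 at 357 and 332 CPM, and acinar-like nuclei at 684 and 920 CPM. Of the ryanodine receptor partners, ASPH was at 111 and 126 CPM in beta-like nuclei.

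For calcium removal, SLC8A1, the sodium-calcium exchanger of the plasma membrane, had 2085 and 1781 CPM in beta-like nuclei (-0.23). It had 1526 and 1751 CPM in mural-like nuclei. In delta-like nuclei it was at 1526 and 683 CPM, a log2 ratio of -1.16. The plasma membrane pumps ATP2B1 (313 and 244 CPM) and ATP2B2 (231 CPM in each library) had lower CPM in beta-like nuclei, not divided by gene length. STIM1 and STIM2, the store sensors of the endoplasmic reticulum, were at 80.3 and 80.4 CPM and at 81.9 and 118 CPM there.

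In alpha-like nuclei 23 partners had at least 20 UMIs, 2 of which were at least 2-fold lower (7.01% of all genes) and 0 higher (6.63%), and the median was 0.08. In mural-like nuclei 16 had 20 UMIs, 6 of which were at least 2-fold higher in PIGinH11 (11% of all genes) and 0 lower (9.34%), and the median was 0.86. The 6 were CACNB2 (137 and 1043 CPM, 2.93 with an interval of 2.22 to 3.73), the adaptor STAC (60.7 and 407 CPM), RYR3 (22.8 and 164 CPM, on 3 and 23 UMIs), CACNA1H (121 and 322 CPM), ITPR1 and ATP2B4. Over all genes of mural-like nuclei the median was 0.00789. Mural-like nuclei numbered 38 in WT and 82 in PIGinH11, and a difference in the mix of mural cells between the pigs cannot be told apart from a difference within them.

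Last, the genes with the most similar pattern over 11 named classes and both libraries (22 points) were looked up for each member among 12002 genes, by Pearson r of log2(CPM + 5). The points share the 2 libraries and their depths, so r is given as a description. CACNA1B was closest to ABCC8 (r = 0.985), the sulfonylurea receptor of the potassium channel that sets the membrane potential of beta cells, then NOL4 (0.984) and PCSK2 (0.981), a prohormone convertase. ABCC8, NOL4 and PCSK2 were among the endocrine markers used to name the classes. Their pattern over classes was thus partly set by that naming. CACNA1A was closest to DSCAML1 (0.983), MARCHF4 (0.978) and NFASC (0.978). CACNA1D came closest to MAPK10 (0.928), CEP126 (0.915) and MAPRE3 (0.913), and CACNA1E to RBFOX1 (0.933), SLC38A4 (0.929) and SRRM3 (0.926). CACNA2D1 followed MAP1B (0.924), CPE (0.921) and JAZF1 (0.920), and CACNA1C followed CPE (0.932), CAP2 (0.910) and GNAI1 (0.897). RYR2 had the loosest match, with CACNA1C first at 0.799, then SEPTIN8 (0.790) and CCDC3 (0.784).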

How the data were processed

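The authors deposited 1 matrix of raw UMI counts per library (10x Genomics; Cell Ranger 3.1.0 and Seurat 3.1.1 per the labels, Cell Ranger 5.0.0 per the file headers), on Sscrofa11.1. WT had 13619 barcodes and 55784067 UMIs (median 3216), PIGinH11 14964 barcodes and 26228811 UMIs (median 1181.5). Nuclei with 270 to 3700 genes, at most 13000 UMIs and at most 10% mitochondrial UMIs were kept; the study's methods print a UMI limit of 1300, which was run as an alternative. Scrublet removed 1484 and 1791 doublets, at a rate of 0.8% per 1000 nuclei. Counts were scaled to 10000 and log-transformed, 2000 variable genes per library were pooled, and 30 principal components with Harmony, 20 neighbours and Louvain at resolution 1 gave the clusters (Python 3.11.15, numpy 2.4.6, scipy 1.17.1, scanpy 1.11.5, igraph 0.11.9). The members, their partners, 60 ribosomal and 13 mitochondrial genes were left out of the clustering genes.

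UMIs were summed per class and library. Intervals are exact at 95% (Poisson for CPM, Clopper-Pearson for shares, conditional binomial for ratios) and cover counting error only, not the spread between nuclei or pigs. "At least 2-fold" is counted among genes with at least 20 UMIs. A count of 0 is given with the level that 3 counts would have. The members, marker lists and partner lists were chosen with earlier results of these data known. Named partners were up to 4 per list with the highest CPM in an endocrine, mural-like or Schwann-like class and those past 2-fold in beta-like nuclei, with others named only within counts; for each member the 3 genes with the highest r were named, among genes with at least 100 UMIs. Of 15410 genes without a symbol, 841 were named from the reference tables; RYR1, FKBP1A, JPH2, JPH3 and CALM2 had no identifier. Gene spans are from RefSeq. RYR2 and CACNA1E overlap uncharacterised RefSeq genes, and CACNA1D overlaps CHDH, so reads may be shared. The ratio and interval calculation was run on simulated Poisson counts, the model that the intervals assume, so this checked the calculation only. The values of 1 partner gene are not reported here. No sequences were analysed here.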

Additional observations from a re-analysis of the deposited data

Results flagged for a closer look

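CACNA1D had opposite differences between the pigs in different classes. Its log2 ratio of PIGinH11 over WT was -0.36 (-0.50 to -0.22) in beta-like nuclei, 0.46 (0.22 to 0.70) in alpha-like nuclei and 0.63 (0.14 to 1.14) in mural-like nuclei. With 1 pig per group the difference between classes was not tested.

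RYR2 was lower in PIGinH11 in gamma-like nuclei, with a log2 ratio of -3.64 (-6.05 to -1.87), and higher in beta-like nuclei at 0.36 (0.15 to 0.56) and in mural-like nuclei at 0.52 (0.22 to 0.81). This difference was not tested either, and 16 of the 18 gamma-like UMIs of WT lay in 1 of 9 nuclei.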

How the results depend on the processing

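Of the counts of genes past 2-fold under other settings, 196 stayed within 1.5 times the reported count and 16 did not. Of the log2 ratios, 710 stayed within the reported interval, 110 moved out of it and 3 that had been past 2-fold changed sign. Of the shares of nuclei with a UMI, 65 left their interval on thinning to 500 UMIs and 5 did not. The 7 members stayed at least 2-fold above acinar-like nuclei in the endocrine classes under every alternative run. In beta-like nuclei the count of members at least 2-fold lower in PIGinH11 was 1 (reported 0) and that of members 2-fold higher 2 (reported 0) with a limit of 1300 UMIs, and 1 were higher after thinning to 500 UMIs. Beta-like partners 2-fold lower numbered 1 (reported 3) after thinning, and 2-fold higher 1 (reported 0) without doublet removal. After thinning, 1 alpha-like member was 2-fold higher (reported 0), and 0 mural-like members were (reported 1), as with the mean over nuclei, 0. Acinar-like members 2-fold higher numbered 2 (reported 4) with median-of-ratios scaling. For alpha-like over beta-like nuclei, the limit of 1300 UMIs gave 0 members 2-fold lower in WT (reported 1) and 1 in PIGinH11 (reported 0), and thinning gave 1 higher in WT (reported 0). For delta-like over beta-like nuclei, thinning gave 2 higher in WT (reported 1). In PIGinH11, subtracting the mean acinar-like nucleus gave 1 lower (reported 2) and 1 higher (reported 0), and the mean over nuclei gave 1 higher (reported 0). Between PIGinH11 and WT in other classes, CACNA1C changed sign in 3 cases where its ratio had been past 2-fold: 0.43 in gamma-like nuclei with the mean over nuclei, and -0.11 in mural-like and -0.031 in ductal-like nuclei after thinning. Signs also changed between classes, over 10 alternatives (the limit of 1300 UMIs aside). For alpha-like over beta-like nuclei, CACNA1C kept its sign in 8 (WT) and 9 (PIGinH11) of 10. CACNA1E kept it there in 5 (WT) and 8 (PIGinH11) of 10, and CACNA1B in 6 of 10 in PIGinH11. CACNA1A and CACNA2D1 each kept it in 9 of 10 in WT. For delta-like over beta-like nuclei, CACNA1C kept its sign in 5 of 10 in PIGinH11. CACNA1A kept it in 7 of 10 and CACNA1E in 9 of 10 in WT. The causes of these shifts were not tested. No delta-like class could be named with the limit of 1300 UMIs.

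Over the 13 other beta-like alternatives, including 2 added after seeing the data (cluster 3 or cluster 4 alone), CACNA1D lay between -0.62 and -0.10, CACNA1B between 0.27 and 0.95, CACNA2D1 between 0.14 and 0.46, RYR2 between 0.04 and 0.41 and CACNA1C between 0.24 and 0.71. CACNA1A lay between -0.22 and 0.09 and CACNA1E between -0.85 and 1.02, the highest after thinning. No paired analysis was possible because each group has 1 library, so leaving out a replicate was not possible either. Low depth in PIGinH11 and few delta-like and gamma-like nuclei limit what these ratios can show.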
